A study of Mus musculus with 4 samples.

Results

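Collagen genes were described in single cells of mouse gonadal white adipose tissue (gWAT). The members were the genes whose symbol is Col, a type number, the letter a and a chain number, 44 of the 31054 features in the count tables, chosen by name and not by their values. The cells came from the stromal vascular fraction (SVF), the tissue freed of floating adipocytes, of 18-month-old male mice of the genotype p16-CreERT2/R26-LSL-tdTomato. All animals carried both alleles and received tamoxifen, which lets a Cre recombinase driven by p16 switch on the red protein tdTomato, so that Tom+ marks cells with p16 promoter activity at that time and their descendants. Cells were sorted for CD45, a leukocyte surface protein, and for tdTomato into 4 libraries. The pair labelled CD45- holds the libraries CD45- Tom+ and CD45- Tom-, and the pair labelled CD45+ holds CD45+ Tom+ and CD45+ Tom-. Values of the 4 libraries are always given in that order. Each group was 1 library, how many mice were pooled was not given in the sources used here, and no comparison below has a replicate.

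Collagens are secreted proteins of 3 chains wound into a triple helix. Fibril-forming types (I, III, V) build the ropes of connective tissue, type IV builds the sheet of basement membranes around adipocytes and vessels, type VI forms beaded filaments between them, and type VIII a hexagonal lattice. Fibril-associated types (XII, XIV, XVI) sit on fibrils, transmembrane types (XIII, XXIII) span the cell membrane, and the multiplexins (XV, XVIII) lie at basement membranes. In adipose tissue most collagen is made by stromal cells, the adipose progenitor cells among them.

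The libraries held from 64083756 to 139397501 unique molecular identifiers (UMIs, each standing for 1 captured transcript), and 13878 cells were kept, with medians of 18331 to 19516 UMIs per cell. tdTomato reached 713 and 714 CPM (counts-per-million, from the summed UMIs of the cells named) in the Tom+ libraries and 15.8 and 18.7 CPM in the Tom- libraries. The CD45 labels were not borne out, since Ptprc, which encodes CD45, lay at 157 to 223 CPM and leukocyte-like cells were found in all 4 libraries. The libraries are therefore named by their labels, and Tom+ and Tom- were set side by side within each pair. Pairs of libraries shared 26 to 4394 of their deposited barcodes, most of all both Tom- libraries, but only 1 to 21 were kept in both. In 155 cells the barcode held at least 10% of the cell's UMIs in another library, and without them 8 in place of 7 members marked a class (Col8a2 was added), while the counts for Tom+ against Tom- progenitors and for Cxcl13 stromal-like against mesothelial-like cells were the same. All intervals are 95% intervals of counting error.

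Cells were clustered without the collagen genes. The 3621 adipose progenitor-like cells (Pdgfra, Dcn, Lum) were then split into 9 clusters, of which 3 carried subset markers. Committed preadipocyte-like cells (480) had Fgf10 at 136 CPM and Enpp6 at 87.2, interstitial progenitor-like cells (199) had Dpp4 at 331 and Pi16 at 1226, and inflammatory progenitor-like cells (842) had Il6 at 1186 and Ptx3 at 620. The others kept a number, among them cluster 5 (352 cells), led by Cthrc1, Ncam1, Thbs4 and Tnc. Mesothelial-like cells (854), the lining of the tissue, had Msln at 605 and Upk3b at 1016 CPM. Cxcl13 stromal-like cells (802) had Cxcl13 at 1214 to 2663 CPM in the 4 libraries. They raised 11 of 12 mesothelial markers and only 3 of 7 Cxcl13 stromal markers, and so were not sharply apart from mesothelial-like cells. They also raised 5 of 9 adipose progenitor markers, against 6 of 9 in mesothelial-like cells. Their Pdgfra was at 467 CPM, against 146 in mesothelial-like and 477 in progenitor-like cells. Progenitor cluster 3 raised 4 of 7 Cxcl13 stromal markers. Lymphatic endothelial-like cells (265; Prox1 at 1057 CPM, Mmrn1 at 3805) were nearly all in the Tom+ libraries, 178 in CD45- Tom+ and 86 in CD45+ Tom+, against 1 and 0 in the Tom- libraries.

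Of the 44 members, 29 reached 10 CPM in some class of at least 50 cells. The other 15 stayed at or below 4.91 CPM in every such class, a level reached by Col7a1, and 5 of them had under 10 UMIs over all cells. They were Col2a1, Col11a1 and Col11a2 of the cartilage fibrils, Col9a1, Col9a2, Col9a3, Col19a1, Col20a1 and Col22a1 of the fibril-associated types, Col6a4, Col7a1, Col10a1, Col17a1, Col25a1 and Col26a1. All 6 type IV genes and both multiplexin genes reached the level, against 8 of 11 fibril-forming and 3 of 9 fibril-associated genes.

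Several type IV genes are neighbours, and the data below bear on these pairs, so the stretches between their start sites are shown. Positions are on mm10 (GRCm38). Col4a4 (ENSMUSG00000067158, chromosome 1, 82448423 to 82586849, minus strand) and Col4a3 (ENSMUSG00000079465, 82586921 to 82722059, plus strand) lie head to head with 71 bases between them. Col4a6 (ENSMUSG00000031273, chromosome X, 141165403 to 141474076, minus strand) and Col4a5 (ENSMUSG00000031274, 141475385 to 141689234, plus strand) lie head to head with 1308 bases between them. Col4a1 (ENSMUSG00000031502, chromosome 8, minus strand) and Col4a2 (ENSMUSG00000031503, plus strand) overlap by 22 bases at their starts. The sequences are from RefSeq (GRCm38.p6), each on its gene's strand, lie upstream of the start and overlap no annotated exon. Capitals mark a CCAAT box (CCAAT) for Col4a5 and a GC box (GGGCGG, read here on the other strand as CCGCCC) for Col4a6.
Col4a4 to Col4a3 (chr1:82586850-82586920, minus strand): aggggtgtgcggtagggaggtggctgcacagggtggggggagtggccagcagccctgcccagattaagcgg
Col4a5 (chrX:141475169-141475384, plus strand): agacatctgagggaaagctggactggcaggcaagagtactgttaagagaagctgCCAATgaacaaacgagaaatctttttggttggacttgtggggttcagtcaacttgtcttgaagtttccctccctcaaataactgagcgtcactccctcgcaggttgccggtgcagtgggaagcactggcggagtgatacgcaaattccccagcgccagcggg
Col4a6 (chrX:141474077-141474326, minus strand): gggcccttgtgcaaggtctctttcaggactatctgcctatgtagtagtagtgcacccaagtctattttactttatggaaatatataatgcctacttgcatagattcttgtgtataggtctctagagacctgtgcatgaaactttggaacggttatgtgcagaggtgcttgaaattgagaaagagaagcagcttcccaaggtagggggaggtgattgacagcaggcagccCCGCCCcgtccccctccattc
Of 32851 RefSeq promoters cut to the same windows, 30.5% held CCAAT in 216 bases and 32.7% held GGGCGG in 250 bases on either strand, so neither match is rare. TATAAA and TGACGTCA were searched too and were in none of the windows.

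Collagen transcripts took very different shares of the RNA of the classes. In progenitor cluster 5 they made up 6.53%, 6.54% and 6.55% of all UMIs in CD45- Tom+, CD45- Tom- and CD45+ Tom-, the libraries with at least 20 of its cells. Committed preadipocyte-like cells held 3.50%, 3.89% and 3.95% in the same libraries. Cxcl13 stromal-like cells held 1.65%, 1.51%, 1.96% and 1.64% in the 4 libraries, against 0.661% to 0.803% in mesothelial-like cells. Lymphatic endothelial-like cells held 0.112% and 0.127% in the Tom+ libraries. These shares did not overlap between any 2 of these 5 classes over the libraries judged. Progenitor cluster 8 (71 cells) had 2.78% and 4.12% in the Tom- libraries, and so lay on both sides of the committed preadipocyte-like cells. Progenitor clusters 9 (1.94% and 1.81% in the Tom- libraries) and 7 (2.17% and 1.81% in the Tom+ libraries) reached into the range of Cxcl13 stromal-like cells. Cluster 1 lay at its upper edge, with 1.96% and 1.99% in the Tom- libraries.

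The kind of collagen differed as well. Fibril-forming genes gave 85.1% of the collagen UMIs in cluster 5, 77.4% in interstitial progenitor-like, 76.8% in Cxcl13 stromal-like, 73.0% in mesothelial-like and 64.9% in committed preadipocyte-like cells, but 5.79% in lymphatic endothelial-like cells. Type IV genes gave 68.6% there and 76.6% in blood endothelial-like cells. Among the progenitors, summed over the libraries, the type IV share was highest in committed preadipocyte-like cells, at 13.9%, against 3.00% in cluster 5. In CD45+ Tom+, where committed preadipocyte-like cells numbered only 10 and were not judged, progenitor cluster 7 had 15.2%. Over the non-leukocyte classes, 9 of the 29 members were highest in cluster 5 (31%, against 3.78% of all 12049 genes at that level) and 9 in committed preadipocyte-like cells (31%, against 4.04%). No other class led more than 3 members.

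**Figure D1:**
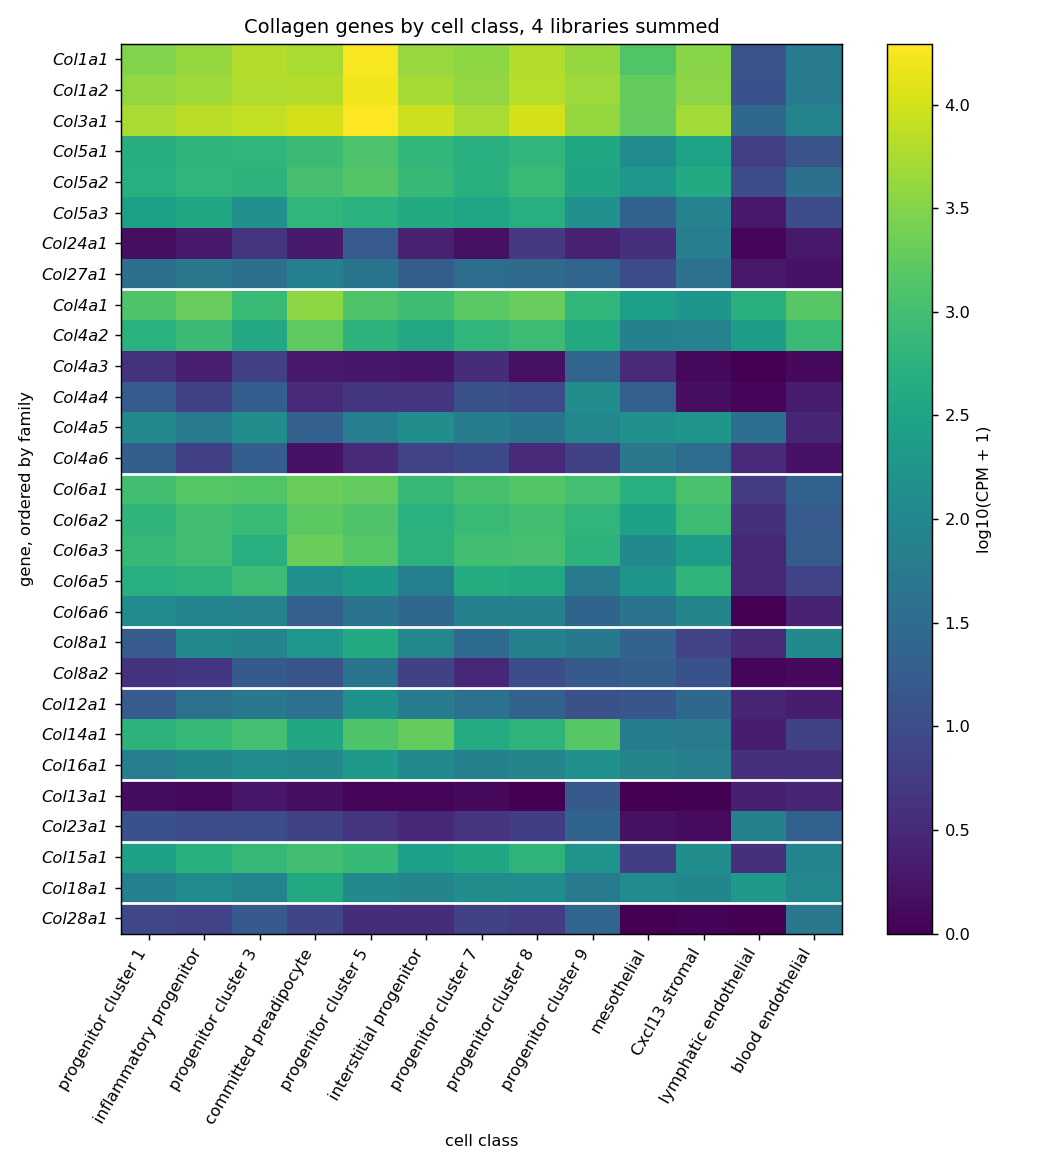
Level of the 29 collagen genes that reached 10 CPM in a class, as log10 of CPM + 1 (colour), summed over the 4 libraries. Rows are genes ordered by family and columns are cell classes. Fibril-forming and type VI genes fill the progenitor, Cxcl13 stromal-like and mesothelial-like columns, whereas both endothelial columns are highest for Col4a1 and Col4a2, with Col8a1 and Col15a1 higher in the blood and Col18a1 and Col23a1 in the lymphatic column.

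A gene was said to mark a class where it had at least 10 CPM there and at least 2 times its CPM in every other class, in every library with at least 20 cells of the class. By this rule 7 of the 29 members (24.1%) marked a class, against 11.5% of the 12049 genes. The count was 14 when the library labelled CD45- Tom+ was not judged, and 4 at the finer clustering described below, where Col8a1 was the only one of the 7 left. Cluster 5 was marked by Col1a1, Col8a1 and Col12a1, Cxcl13 stromal-like cells by Col24a1, and progenitor cluster 9 by Col4a3, Col4a4 and Col13a1. No member marked mesothelial-like, lymphatic endothelial-like, committed preadipocyte-like, interstitial or inflammatory progenitor-like cells. With all progenitors as 1 class, Col5a1, Col5a3, Col6a3, Col14a1 and Col15a1 marked progenitors, Col24a1 the Cxcl13 stromal-like and Col28a1 the blood endothelial-like cells, 7 of 27 members (25.9%, against 13.4% of 11766 genes).

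Cluster 5 carried the highest levels of the fibril chains. Col1a1 (ENSMUSG00000001506, chromosome 11, 94936224 to 94953042), the main chain of type I collagen, stood at 18048, 17700 and 17260 CPM in CD45- Tom+, CD45- Tom- and CD45+ Tom-. The next class in each of these libraries had 6452, 6330 and 7803 CPM. Its partner chain Col1a2 stood at 15176, 15784 and 15057 CPM, just short of 2 times the next class in CD45+ Tom-. Thus the 3 libraries lay close together and far above every other class. Col3a1, the only chain of type III, stood at 20337, 18959 and 19938 CPM, against 10180 and 10309 in committed preadipocyte-like cells and 13981 in progenitor cluster 8, the next class in each. Col5a1, a chain of the type V collagen that nucleates fibrils, reached 1310, 1230 and 1200 CPM, and Col5a2 1500, 1322 and 1424 CPM.

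Genes of the fibril-associated types and of the hexagonal network were also high in cluster 5. Col12a1 (chromosome 9, 79598991 to 79718831), of the fibril-associated types, stood at 197, 168 and 144 CPM, against 73.3, 55.3 and 68.4 in the next class. Col8a1 (chromosome 16, 57624258 to 57754737), of the hexagonal network, stood at 355, 389 and 439 CPM, against 165, 168 and 216. A UMI of Col12a1 was seen in 236 of the 352 cells and one of Col8a1 in 253 (71.9%). The shares were 1.21% and 1.11% of 2071 macrophage-like cells, taken here as the level of free RNA. Other sources of the UMIs in macrophage-like cells were not tested. The median depth was 35166 UMIs in cluster 5 and 20734 in macrophage-like cells, and after thinning each cell to 2000 UMIs the shares were 22.9% and 32.7% against 0.145% and 0.242%. Col8a2 was at 39.1, 40.2 and 45.8 CPM and Col16a1 at 224, 191 and 208 CPM.

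Committed preadipocyte-like cells led the common chains of types IV and VI and both multiplexins. Col4a1, which with Col4a2 forms the common basement membrane network, stood at 3069, 3796 and 3742 CPM, against 1506, 2118 and 2165 in the next class. Col4a2 stood at 1382, 1708 and 1690 CPM. Col15a1 (chromosome 4, 47208161 to 47313167) reached 929, 1050 and 956 CPM and Col18a1 (chromosome 10, 77052178 to 77166548), the source of the fragment endostatin, 338, 382 and 419 CPM. The main type VI chains were highest here too, Col6a1 at 1864, 2096 and 2240 CPM, Col6a2 at 1431, 1609 and 1663 CPM, and Col6a3, the source of endotrophin, at 1780, 2214 and 2160 CPM. Col5a3 stood at 586, 698 and 681 CPM and Col27a1, a short fibril-forming type, at 76.9, 74.7 and 65.6 CPM. In each series of 3 the CD45- Tom+ library, with 43 cells, was the lowest, apart from Col27a1, of which it was the highest.

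Set against each other in 3 libraries, cluster 5 was at least 2 times higher than committed preadipocyte-like cells in 8 of 23 members (background 1.4% of genes), which were Col1a1, Col1a2, Col24a1, Col4a5, Col8a1, Col8a2, Col12a1 and Col14a1. It was at least 2 times lower in 3 (background 1.73%), the basement membrane genes Col4a1, Col4a2 and Col18a1. The median log2 ratio of the members was 0.62, against -0.10 over all genes. Committed preadipocyte-like cells were at least 2 times higher than interstitial progenitor-like cells in 8 of 22 members over both Tom- libraries (background 4.61%), all 3 main type VI chains, both common type IV chains, both multiplexins and Col27a1. They were at least 2 times lower in Col14a1 and Col4a5 (background 4.74%).

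Interstitial progenitor-like cells held the most Col14a1 (chromosome 15, 55307750 to 55520803), a fibril-associated type that spaces fibrils, at 1950 and 1952 CPM in the Tom- libraries. The next class was progenitor cluster 9, at 1491 and 1592 CPM, and cluster 5 lay at 1279 and 1357 CPM. Inflammatory progenitor-like cells led no member. Against them, committed preadipocyte-like cells were at least 2 times higher in Col6a3, Col8a2 and Col18a1 of 24 members (background 0.584%) and at least 2 times lower in Col4a5, Col6a5 and Col6a6 (background 1.12%).

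**Figure D2:**
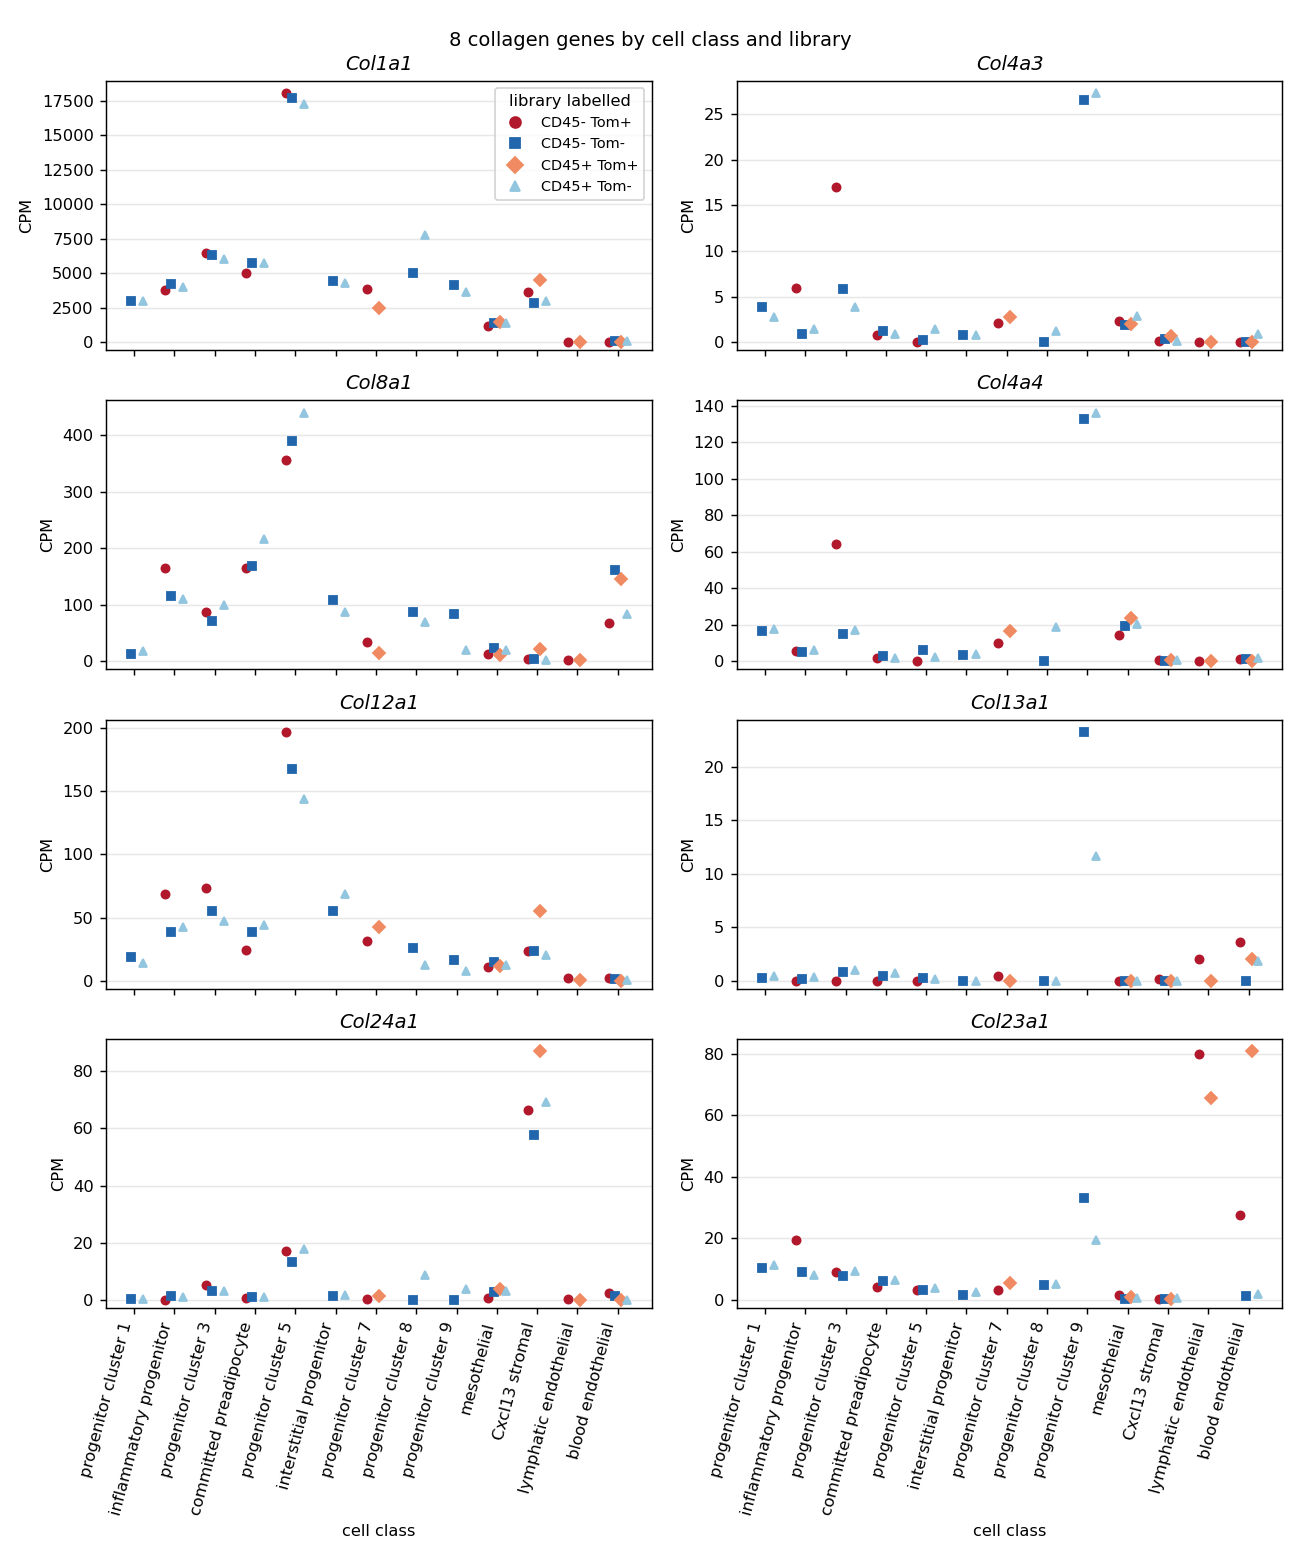
CPM (linear axis from 0) of 8 collagen genes by cell class, 1 point for each library with at least 20 cells of the class, coloured by library. The points of Col1a1, Col8a1 and Col12a1 stand highest in progenitor cluster 5, Col4a3, Col4a4 and Col13a1 in progenitor cluster 9 and Col24a1 in Cxcl13 stromal-like cells, while Col4a4 in progenitor cluster 3 and Col23a1 in blood endothelial-like cells differ widely between libraries.

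The less common chains of types IV and VI had a pattern of their own. Progenitor cluster 3 (527 cells, led by Cxcl13, Lcn2 and Saa3) held the most Col6a5, an alternative chain of type VI, at 686, 877 and 898 CPM in CD45- Tom+, CD45- Tom- and CD45+ Tom-. Cxcl13 stromal-like cells came next with 496, 605 and 756 CPM, and committed preadipocyte-like cells were far lower, with 0.0659 UMIs of Col6a5 for each UMI of Col6a3, against 1.79 in cluster 3 and 2.58 in Cxcl13 stromal-like cells. Col6a6, another alternative chain, was highest in progenitor cluster 1, at 123 and 118 CPM in the Tom- libraries. Against inflammatory progenitor-like cells, cluster 3 was at least 2 times higher in Col4a4, Col4a5, Col4a6 and Col8a2 of 26 members (background 1.28%) and at least 2 times lower in Col4a1 and Col5a3 (background 0.557%). Cluster 3 thus had more of 3 rarer type IV chains and less of the common chain Col4a1.

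Progenitor cluster 9 was the smallest, with 60 cells, a median of 9984 UMIs and only both Tom- libraries above 20 cells. In CD45- Tom- and CD45+ Tom-, Col4a4 stood at 133 and 136 CPM, against 19.2 and 20.2 in mesothelial-like cells, the next class. A Col4a4 UMI was seen in 55.0% of its cells (33 of 60, exact binomial interval 41.6% to 67.9%), against 1.06% of macrophage-like and 6.62% of plasma-like cells, and in 28.8% against 0.145% of macrophage-like cells after thinning. Col4a3, across the 71 bases, was at 26.6 and 27.2 CPM, 16 UMIs in all. Both genes of the head-to-head pair thus led in the same cluster in both Tom- libraries. In CD45- Tom+, where cluster 9 was not judged, both were instead highest in progenitor cluster 3. In CD45+ Tom+, where it was not judged either, Col4a4 was highest in mesothelial-like cells. Whether single cells held both transcripts was not tested. In cluster 9 Col13a1, a transmembrane type, was at 23.2 and 11.7 CPM in CD45- Tom- and CD45+ Tom-. These came from 10 UMIs in all, too few to order its libraries. Cluster 9 was led by genes including Chrdl1 and Apod. Mesothelial marker levels differed between its libraries, summing to 99.6 CPM in CD45- Tom- and 463 CPM in CD45+ Tom-. Of the 12 markers, 7 had no UMI in any of its cells, and Msln was at 0 and 202 CPM in these libraries. The part of mesothelial RNA in the cluster's values was not tested.

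Cxcl13 stromal-like cells stood out by Col24a1 (ENSMUSG00000028197, chromosome 3, 145292472 to 145552011), a fibril-forming type known from bone and cornea. Its level was 66.5, 57.6, 87.0 and 69.1 CPM in the 4 libraries. Mesothelial-like cells had 0.581, 2.78, 3.95 and 3.22 CPM. Cluster 5, the next class, had 13.3 and 17.7 CPM in the Tom- libraries and a level between these in CD45- Tom+. In CD45+ Tom+ cluster 5 had only 12 cells, and mesothelial-like cells were the next class judged. A Col24a1 UMI was seen in 57.1% of Cxcl13 stromal-like cells (458 of 802, 53.6% to 60.6%), 5.74% of mesothelial-like, 0.869% of macrophage-like and 0.377% of lymphatic endothelial-like cells. After thinning the shares were 11.7%, 0.947%, 0.0483% and 0 of 265 cells.

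Against mesothelial-like cells, Cxcl13 stromal-like cells were at least 2 times higher in 12 of 25 members in each of the 4 libraries (48%, background 2.6% of 9507 genes). These were the fibril genes Col1a1, Col3a1, Col5a1, Col5a2, Col5a3, Col24a1 and Col27a1, the type VI genes Col6a1, Col6a2, Col6a5 and Col6a6, and Col15a1. One member, Col4a4, was at least 2 times lower (background 5.11%). The median log2 ratio of the members was 1.13, against -0.12 over all genes. Col1a1 stood at 3658, 2853, 4533 and 3017 CPM in Cxcl13 stromal-like cells against 1200, 1363, 1427 and 1374 in mesothelial-like cells, a log2 ratio of 1.61, 1.07, 1.67 and 1.13. Col15a1 stood at 121, 119, 109 and 139 CPM against 0.581, 6.27, 2.96 and 5.25 CPM, so that it was near 0 in mesothelial-like cells of every library. Col4a4 was at 0.618, 0.132, 0.633 and 0.790 CPM against 14.5, 19.2, 23.7 and 20.2, the opposite order. In place of 12 the count was 7 with each cell thinned to 2000 UMIs and 4 at the finer clustering. It was 3 with a looser cell filter, where the cells were clustered anew. At the finer clustering part of the Cxcl13 stromal-like cells were named mesothelial.

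The type IV genes thus did not move as 1 set. Col4a6 was highest in mesothelial-like cells of all classes, at 42.4, 49.7, 45.4 and 48.7 CPM, with 29.2, 35.9, 32.6 and 32.1 CPM in Cxcl13 stromal-like cells. Its head-to-head neighbour Col4a5 stood at 149, 173, 192 and 182 CPM in Cxcl13 stromal-like cells, the highest class in 3 libraries but below the 186 CPM of progenitor cluster 3 in CD45- Tom+, with 127, 154, 147 and 140 CPM in mesothelial-like cells. Both genes were therefore high in both classes, with the order turned over. The counting interval of the Col4a5 difference lay off 0 by a small amount in CD45- Tom- (log2 ratio 0.17, 0.06 to 0.27). Col4a5 was 1.12 times higher in Cxcl13 stromal-like cells there, and 1.30 times higher in both CD45+ Tom+ and CD45+ Tom-. In these 2 classes there were 0.957 and 0.555 UMIs of Col4a5 for each UMI of Col4a1, against 0.00531 in committed preadipocyte-like cells. The order of some members depended on the library. Col8a1 was lower in Cxcl13 stromal-like cells in 3 libraries (log2 ratios of -1.37, -2.31 and -2.74) and higher in CD45+ Tom+ (1.07, 0.15 to 2.13). Col14a1 was higher in CD45- Tom+ (1.11, 0.66 to 1.58) and had ratios of -0.20, -0.18 and -0.22 in the other libraries.

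**Figure D3:**
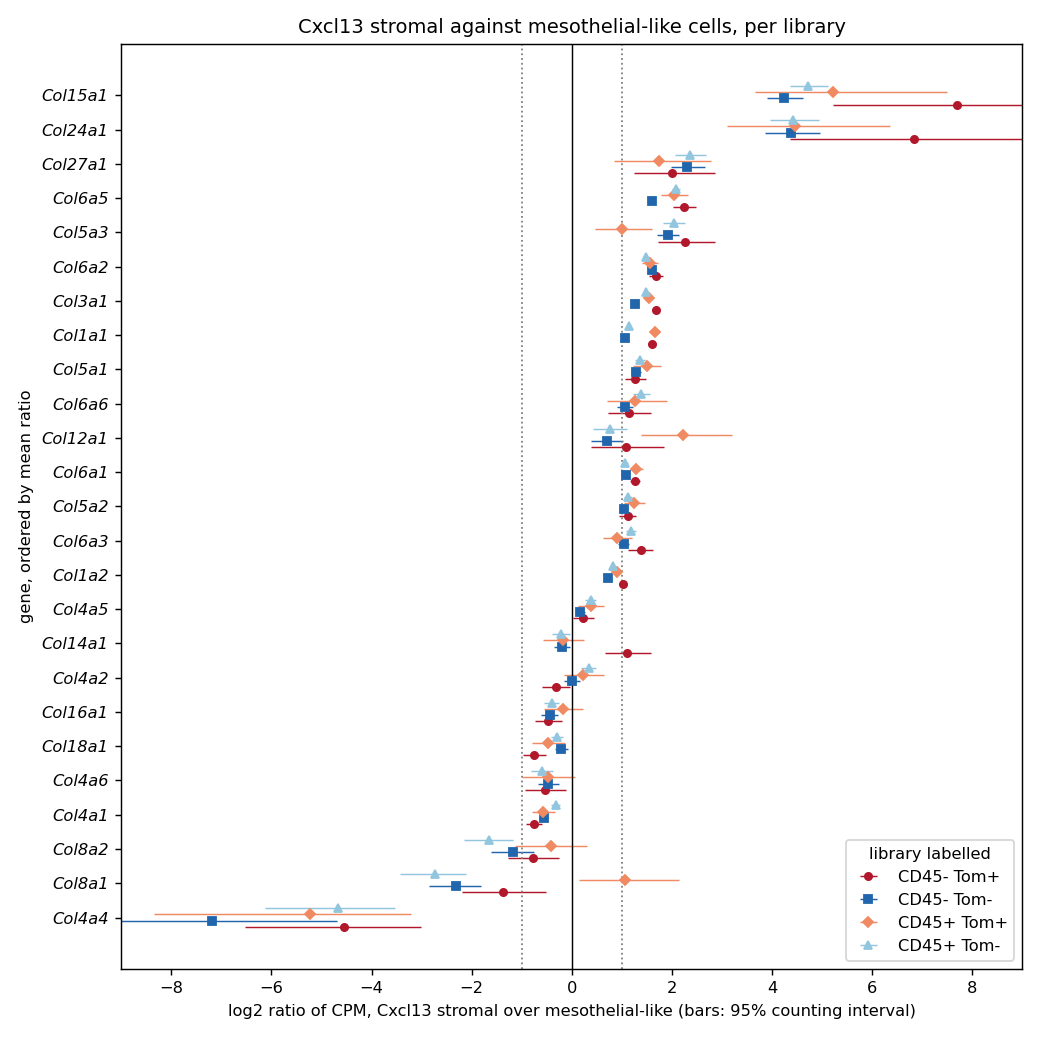
Log2 ratio of CPM in Cxcl13 stromal-like over mesothelial-like cells for the collagen genes compared, 1 point for each of the 4 libraries, with 95% counting intervals as bars and dotted lines at 2 times higher and lower. Points right of the line at 0 are higher in Cxcl13 stromal-like cells, as for Col1a1 in every library, Col4a4 lies left of it in every library, and Col8a1 lies on both sides.

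This boundary rested on the clustering, so finer clusters were read as well, a choice made after the data were seen. At resolution 2 the cells of these classes fell mostly into 5 clusters, and the purest were cluster 2 (651 cells, all mesothelial-like; Upk3b 1088 and Cxcl13 10.5 CPM) and cluster 16 (390 cells, all Cxcl13 stromal-like; Upk3b 35.6 and Cxcl13 3298 CPM). Col1a1 was at 1202 CPM in the first and 3266 in the second, Col6a5 at 150 and 900, Col15a1 at 3.96 and 179, and Col24a1 at 1.37 and 68.7. Cluster 14 (455 cells, 253 of them Cxcl13 stromal-like) lay between them in each of these, with Col1a1 at 1974, Col6a5 at 333, Col15a1 at 17.5 CPM and a Col24a1 interval of 24.2 to 29.9 CPM. The order of the broad classes was thus the same between the purer clusters for these members. Since each of those clusters holds cells of only 1 broad class, this cannot test where the boundary lies.

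A small finer cluster went beyond both ends. Cluster 38 (63 cells of the Cxcl13 stromal-like class, led by Ncam1, Tagln and Wnt4) had Cxcl13 at 3.73 and Upk3b at 96.4 CPM but Col1a1 at 9664, Col1a2 at 8049 and Col12a1 at 110 CPM. Its Col24a1 was the highest of the 5, at 163 CPM, with 114 CPM in CD45- Tom+ and 170 CPM in CD45+ Tom+, the libraries with at least 20 of its cells. Its Col6a5, at 53.1 CPM, was the lowest of the 5. Levels of Col24a1 and Cxcl13 thus parted within the class. At resolution 2 the naming rule called clusters 14, 38 and 39 mesothelial and only cluster 16 Cxcl13 stromal, and Col24a1 no longer marked a class. Of the 63 cells, 30 and 22 were in the Tom+ libraries and 5 and 6 in the Tom- libraries.

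**Figure D4:**
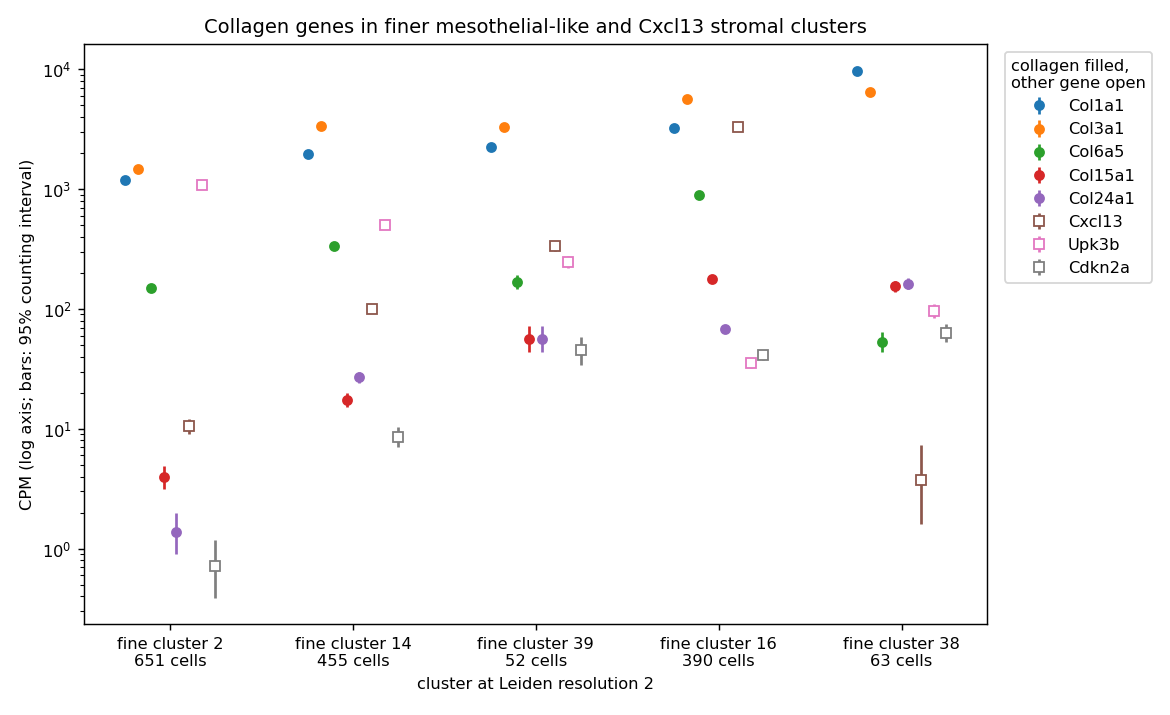
CPM (log axis, bars for 95% counting intervals) of 5 collagen genes (filled) and of Cxcl13, Upk3b and Cdkn2a, which encodes p16 (open), in the 5 finer clusters that hold most Cxcl13 stromal-like and mesothelial-like cells. Col1a1, Col15a1 and Col24a1 are lowest in cluster 2, and Col1a1 and Col24a1 are highest in cluster 38, where Cxcl13 is low.

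Lymphatic endothelial-like cells used few collagens. Values are for CD45- Tom+ and CD45+ Tom+, the libraries with at least 20 such cells. Col4a1 stood at 472 and 596 CPM, Col4a2 at 234 and 279 CPM, and Col18a1 at 196 and 204 CPM. Col23a1 (chromosome 11, 51289920 to 51583918), a transmembrane type, stood at 80.0 and 65.6 CPM, or 74.9 CPM (67.6 to 82.9) when summed over libraries. They were the highest class in CD45- Tom+, whereas in CD45+ Tom+ blood endothelial-like cells were higher, at 80.9 CPM. A Col23a1 UMI was seen in 55.5% of the cells (147 of 265) against 0.435% of macrophage-like cells, and in 13.6% against 0.0483% after thinning. The fibril genes Col1a1 (12.5 and 10.8 CPM) and Col3a1 (27.6 and 22.3 CPM) lay within the range of leukocyte-like classes, 10.8 to 91.6 and 16.5 to 166 CPM, where they are read as background.

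Set against blood endothelial-like cells of the same libraries, lymphatic endothelial-like cells were at least 2 times higher in 2 of 13 members (15.4%, background 8.18%) and at least 2 times lower in 6 (46.2%, background 7.77%). Higher were Col18a1, at 196 and 204 against 69.7 and 60.7 CPM, and Col4a5, at 35.5 and 36.9 against 3.60 and 0 CPM. Lower were Col1a2, Col5a2, Col6a3, Col8a1, Col15a1 and Col28a1, of which Col1a2 lay below the highest leukocyte-like class in both endothelial classes and is read as background. Col8a1, long known from endothelium, was at 2.62 and 1.91 CPM against 67.3 and 146, and Col15a1 at 2.62 and 3.18 CPM against 33.6 and 36.4. Col28a1 had no UMI in the 265 cells, which allows up to 0.593 CPM, against 25.2 and 26.3 CPM. Col23a1 was not among them, since blood endothelial-like cells had 27.6 CPM of it in CD45- Tom+ but 80.9 CPM in CD45+ Tom+, from 57 and 31 cells. Of these cells 14 and 12 were of a sub-cluster led by Vwf, a gene of larger vessels, in which Col23a1 was at 99.6 CPM.

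Ratios between chains of 1 collagen type ranged from steady to widely varying. UMIs here count transcript 3' ends, so gene length does not enter. Over 52 values of class and library, Col1a1 had 0.641 to 1.28 UMIs for each UMI of Col1a2, with a median of 0.970. These values came from 20 classes, leukocyte-like ones among them, where both genes are read as background. How steady the ratio is without those classes was not tested. Col4a1 had 1.30 to 3.74 for each of Col4a2 (40 values, median 2.18), and Col6a1 1.16 to 1.82 for each of Col6a2 (38 values, median 1.48). Other chains that can share a protein varied more, since Col6a3 had 0.155 to 1.06 for each UMI of Col6a1 (36 values), Col4a5 had 2.88 to 11.5 for each of Col4a6 (14 values) and Col8a2 had 0.0452 to 3.44 for each of Col8a1 (13 values). Among chains that replace each other, Col4a5 had 0.00461 to 1.18 for each of Col4a1 (29 values), and Col6a5 0.0554 to 2.92 for each of Col6a3 (32 values). Each value rests on at least 30 UMIs of both genes. The classes behind the ranges therefore differed, from 20 for Col1a1 and Col1a2 to 5 for Col4a5 and Col4a6.

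Some of the genes that make collagen were also highest in cluster 5, where 3.78% of all genes at the level were highest. Of 14 genes of prolyl and lysyl hydroxylation 9 were highest there, among them Plod2, a lysyl hydroxylase, at 586 CPM. Of 8 folding and export genes 4 were, with Serpinh1, the collagen chaperone, at 1855 CPM. The other lists differed, with 1 of 7 genes of propeptide processing, 0 of 4 of cross-linking and 0 of 8 collagen receptors highest in cluster 5. Pcolce, which enhances removal of the C-propeptide, was highest in committed preadipocyte-like cells at 943 CPM, whereas Pcolce2 (573 CPM), the cross-linking enzyme Loxl1 (1330 CPM) and the collagen receptor Ddr2 (606 CPM) were highest in interstitial progenitor-like cells.

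Tom+ and Tom- progenitor-like cells were then compared, which asks how collagen transcripts stand in p16-high cells. No member was 1.5-fold higher or lower in Tom+ in both pairs, 0 of 26, where the background was 0.816% higher and 0.279% lower of 9684 genes. The median log2 ratio of the members was -0.14 in the pair labelled CD45- and -0.04 in that labelled CD45+, against -0.03 and -0.03 over all genes. Single members ranged from -0.48 to 0.54 and from -1.16 to 0.63. Of the 26, 12 had opposite signs in the 2 pairs, 13 lay below 0 in both (50%, background 35.2%) and 1 above 0 in both (3.85%, background 21.6%). In 8 of the 13 both counting intervals lay under 0 (30.8%, background 4.45%), and these intervals are narrower for genes of high level.

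Col14a1 was the clearest of the latter, at 636 CPM in Tom+ against 870 in Tom- in the pair labelled CD45- and 736 against 858 in the other, log2 ratios of -0.45 and -0.22. Col6a5 had -0.29 and -0.23. Col1a1 had 5821 against 6500 CPM (-0.16) and 7228 against 6366 CPM (0.18), so its direction turned between pairs. Together the collagens made up 2.96% of UMIs in Tom+ against 3.28% in Tom- in the first pair (log2 ratio -0.15, -0.15 to -0.14) and 3.36% against 3.28% in the second (0.04, 0.03 to 0.05).

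The mix of progenitor subsets and RNA of plasma cells moved with these values. Tom+ progenitor-like cells numbered 264 and 106, of which 130 and 37 were of cluster 7, led by immunoglobulin genes, against 6 of 1536 and 8 of 1715 in Tom-. Without cluster 7 the log2 ratio of summed collagen was 0.091 and 0.27. With Tom+ and Tom- of each pair given the same mix of subsets, it was -0.13 and -0.049. Subsets with under 5 cells in either library of a pair were left out. Cluster 1, with 4 Tom+ against 420 Tom- cells, was thus not in the mix of the first pair. The 7 plasma cell markers summed to 1768 and 2100 CPM in Tom+ progenitor-like cells against 166 and 156 CPM in Tom-. Within subsets of the pair labelled CD45-, the log2 ratio of summed collagen was -0.0028 in cluster 5, -0.06 in cluster 3, -0.15 in committed preadipocyte-like and -0.31 in inflammatory progenitor-like cells, the last from 20 Tom+ cells. The part of the subset mix and of plasma cell RNA beyond these values was not tested.

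**Figure D5:**
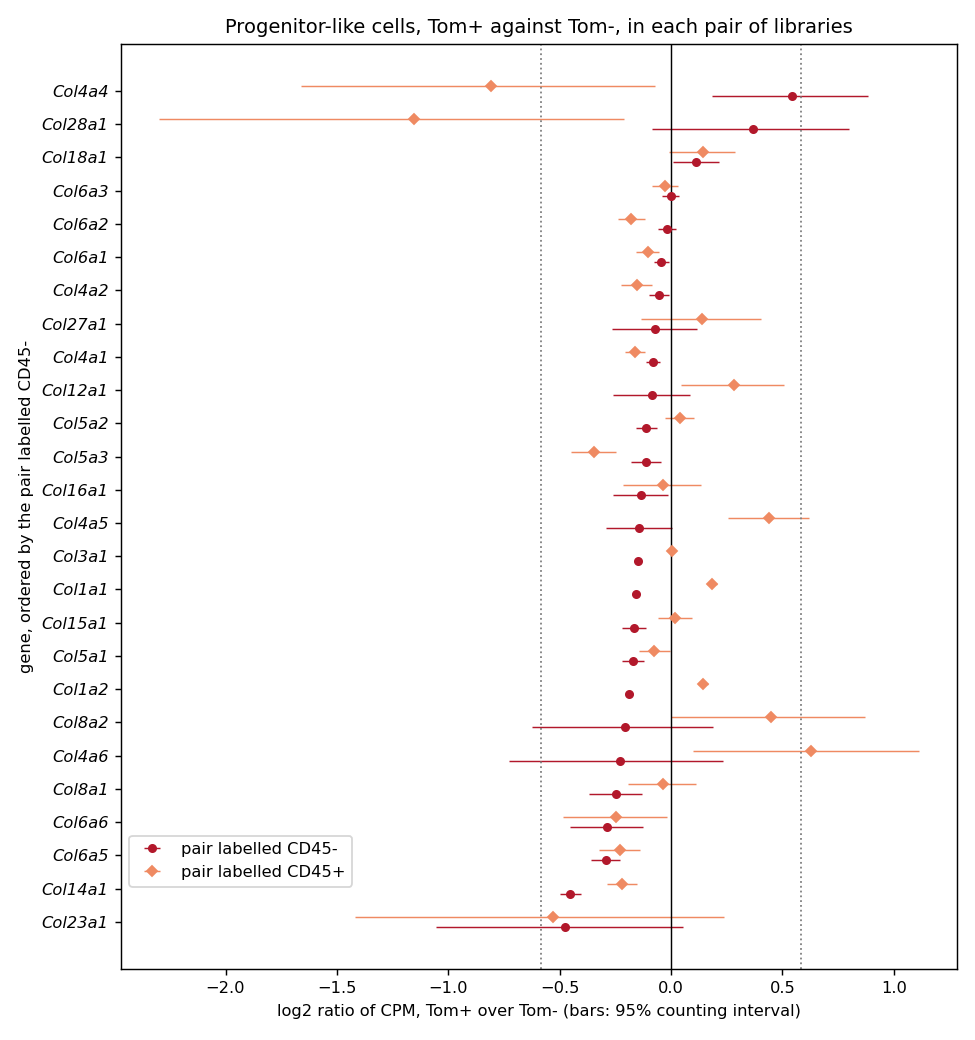
Log2 ratio of CPM in Tom+ over Tom- adipose progenitor-like cells for the 26 collagen genes compared, 1 point for each pair of libraries, with 95% counting intervals as bars. Dotted lines stand at 1.5-fold. No gene passes the same line in both pairs, and Col1a1 lies on opposite sides of 0.

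The machinery genes gave the same count. None of the genes tested passed 1.5-fold in both pairs, of 14 (hydroxylation), 8 (folding and export), 7 (propeptide processing), 5 (cross-linking) and 6 (receptors). Their median log2 ratios were -0.10 and -0.04, -0.14 and -0.13, -0.22 and -0.25, -0.27 and -0.16, and -0.09 and -0.05. The extremes of the lists, by the mean of both pairs, were P3h2 (0.50 and 0.57) and P4ha2 (-0.12 and -0.22), Hsp90b1 (0.04 and 0.04) and Fkbp10 (-0.15 and -0.28), Adamts3 (0.12 and 0.40) and Adamts14 (-0.26 and -0.82), Loxl2 (-0.18 and -0.20) and Loxl4 (-0.53 and -0.13), and Itga1 (0.10 and 0.47) and Itga11 (-0.47 and -0.10).

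In mesothelial-like cells 2 of 23 members were lower in Tom+ in both pairs (background 0.884%) and none higher (background 0.679%). Col6a6 had 30.8 against 48.1 CPM and 27.6 against 41.6 CPM, log2 ratios of -0.64 and -0.59. Col8a1 had 12.8 against 24.3 CPM and 10.9 against 20.2 CPM, log2 ratios of -0.93 and -0.90. Within finer cluster 2, all of it mesothelial-like, Col8a1 had -1.34 (-2.27 to -0.54) and -0.46 (-1.49 to 0.42), so that the second pair fell short of 1.5-fold, and Col6a6 had -1.01 and -0.59 (-1.37 to 0.09 in the second pair). In Cxcl13 stromal-like cells 1 of 23 was higher (background 1.75%) and 0 lower (background 1.62%). This was Col8a2, with log2 ratios of 1.10 and 1.63, from 7.94 CPM in CD45- Tom- and 18.4 against 5.93 CPM in the pair labelled CD45+. Within finer cluster 16 Col8a2 had -0.45 (-1.71 to 0.73) and 0.33 (-1.30 to 1.75), from levels under 5 CPM, and finer cluster 38, mostly Tom+ cells, had it at 49.4 CPM, so its ratio in the class moved with the makeup of the class. Plasma cell markers summed to 1310 and 768 CPM in Tom+ mesothelial-like cells against 100 and 91.3 CPM in Tom-, and to 2700 and 2390 CPM against 105 and 107 CPM in Cxcl13 stromal-like cells, and their part in these values was not tested.

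Among endothelial cells, the lymphatic ones gave no comparison, since the Tom- libraries held 1 such cell. Blood endothelial-like cells were compared after the data were seen, from 57 Tom+ against 98 Tom- cells and 31 against 122. Here 2 of 17 members were higher in Tom+ in both pairs (11.8%, background 6.02%) and 11 lower (64.7%, background 7.33%). Col4a1, the main basement membrane chain, had 735 against 2118 CPM and 1003 against 1930 CPM, log2 ratios of -1.53 and -0.94. Col15a1 had 33.6 against 141 CPM and 36.4 against 105 CPM, log2 ratios of -2.07 and -1.53. Col4a2, Col18a1 and Col28a1 were lower too, and these 5 stood at least 2 times above every leukocyte-like class of the same library in all 4 libraries. Col23a1 had 27.6 against 1.22 CPM, the latter 1 UMI, and 80.9 against 1.85 CPM, and Col5a2 had 52.9 against 26.7 CPM and 50.6 against 28.7 CPM.

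The other 6 lower members, Col1a1, Col1a2, Col3a1, Col5a1, Col6a1 and Col14a1, were not that far above leukocyte-like cells in at least 3 of the 4 libraries and are read as background. Collagens in B cell-like cells, read as free RNA, took 0.0137% and 0.0150% of their UMIs in the Tom+ libraries. They took more in the Tom- libraries, 0.0470% and 0.0427%. Fibril-forming genes summed to 338 and 311 CPM in Tom- blood endothelial-like cells and to 334 and 311 CPM in Tom- B cell-like cells. In the Tom+ libraries the sums were 179 and 129 CPM against 97.0 and 113 CPM. Markers of other cells moved with the ratios as well. Plasma cell markers, 3 of 7 raised, summed to 2558 and 1410 CPM in Tom+ blood endothelial-like cells against 309 and 237 CPM in Tom-, and mesothelial markers, 1 of 12 raised, to 174 and 91.0 CPM against 25.5 and 25.9 CPM, and their part was not tested.

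The makeup of the blood endothelial-like class moved with these ratios. The Vwf-led sub-cluster held 14 of 57 and 12 of 31 Tom+ cells but 0 of 98 and 3 of 122 Tom- cells, and in its 29 cells Col23a1 stood at 99.6, Col5a2 at 125 and Col4a1 at 137 CPM. In the largest sub-cluster (170 cells, led by Cldn5 and Gpihbp1) Col4a1 stood at 1537 and Col23a1 at 1.36 CPM. Both higher members were thus at their highest in the Vwf-led cells, whereas Col4a1 was low there. Within the largest sub-cluster, from 24 Tom+ against 53 Tom- cells and 14 against 79, Col4a1 had log2 ratios of -0.79 (-0.98 to -0.60) and 0.13 (-0.06 to 0.32) and Col4a2 of -0.44 and 0.43, so neither kept its direction. Col15a1 had -2.22 (-3.62 to -1.06) and -2.09 (-4.02 to -0.66) and stayed lower in both pairs.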

How the data were processed

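The authors made 10x Genomics 3' libraries from SVF sorted by flow cytometry after Liberase digestion, and counted UMIs per gene and barcode with Cell Ranger 3.0.2 on mm10 (per the submitters' processing notes). They deposited raw count matrices, 1 for each library, without normalization. All values were computed from these counts. The study's limits on barcodes were used (more than 1000 genes, fewer than 7000, less than 8% of UMIs mitochondrial), and doublets were removed by Scrublet score (0.8% per 1000 barcodes; 259, 364, 54 and 427), which left 3886, 3674, 1927 and 4391 cells.

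Clustering (scanpy 1.11.5, leidenalg 0.10.2) used 2000 variable genes without collagens, their machinery and tdTomato, 30 principal components, 15 neighbours and Leiden resolution 1, with no batch integration. Clusters were named from marker lists, each with at least 3 markers at 20 CPM and 4 times the median over clusters. Among lists that passed, the largest share of raised markers gave the name. An exception was Cxcl13 stromal, which took precedence over related classes where any of its markers was among a cluster's leading genes. By share alone the Cxcl13 stromal-like cells would have been named mesothelial (11 of 12 markers against 3 of 7). Progenitor-like cells were clustered again at resolution 0.6, a choice made after the data were seen. Clusters that fit no name hold 1398 cells (10.1%) and entered no comparison.

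UMIs were summed by class and library as CPM. With 1 library per group there is no test between groups. Intervals are exact Poisson, conditional exact (log2 ratios) and Clopper-Pearson (shares) at 95%, and a count of 0 is given with a limit of 3 counts. Contrasts used genes whose mean reached 5 CPM, and were run on all genes for the background. Members with at least 10 CPM in a class of at least 50 cells are named; of each machinery list the genes of highest and lowest mean ratio are named. The members and lists were chosen with earlier results of these data known. Positions are from GENCODE vM21. Sequences are from RefSeq, where 35 of the 44 members had a promoter entry. The interval of log2 ratios and the 1.5-fold rule were tested on simulated Poisson counts, drawn without variation between cells or libraries. The other steps were not tested in this way.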

Additional observations from a re-analysis of the deposited data

Results flagged for a closer look

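In adipose progenitor-like cells 3 collagens lay on opposite sides of 0 in the pairs of libraries, each with a counting interval off 0. The difference between pairs (CD45+ minus CD45-) in the log2 ratio of Tom+ over Tom- was 0.34 for Col1a1, 0.33 for Col1a2 and -1.35 for Col4a4, the last from levels of 5.79 to 14.4 CPM. In mesothelial-like cells the same held for Col1a2 (0.39) and Col3a1 (0.41). With 1 library in each group these differences were not tested.

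Col6a4, a type VI gene under the level in every class compared, reached 35.7 CPM (37 UMIs, 25.2 to 49.3) in a cluster of 28 epithelial-like cells that was too small for the comparisons. Of these cells 16 were in CD45- Tom+ and 12 in CD45+ Tom+.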

How the results depend on the processing

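No paired analysis was possible because each group is 1 library and the labels carry no replicate number. No member passed 1.5-fold in both pairs in Tom+ against Tom- progenitor-like cells as reported, so there was no such call that could reverse. Of 108 alternative values of summary results, 73 stayed near the reported value and 35 moved, as did 199 of 674 values of single genes. The log2 ratio of summed collagen in progenitor-like cells, -0.15 and 0.04 in the 2 pairs, was -0.16 in the pair labelled CD45- with collagens among the clustering genes, -0.16 and 0.059 with doublets kept, -0.16 and -0.034 with the looser cell filter, -0.094 and 0.010 with each cell thinned to 2000 UMIs, -0.088 and -0.018 with each cell weighing the same, -0.11 and 0.082 with immunoglobulin, mitochondrial and haemoglobin UMIs out of the total, and -0.13 and -0.049 with the subsets in 1 mix. With the unnamed cluster 22, of progenitor and plasma cell markers, counted as progenitor-like, it was -0.51 and -0.35, the medians were -0.48 and -0.39, and 2 members were lower in both pairs. Without progenitor cluster 7 it was 0.091 and 0.27 and the medians were 0.12 and 0.17. The sign of the summed ratio thus turned with the clusters counted, so no direction is given for the class. The mix of subsets was set within each pair, and with it 1 member was higher. The members marking a class numbered 4 at resolution 2, with doublets kept, with thinned cells and with cells weighing the same, and 7 to 14 when single libraries were not judged. Members at least 2 times higher and lower in Cxcl13 stromal-like than in mesothelial-like cells numbered 4 and 2 at resolution 2, 3 and 3 with the looser filter and 7 and 0 with thinned cells, and 2 were lower with collagens among the clustering genes. The causes were not tested. Depth limits members with few UMIs in a class, among them Col13a1 (10) and Col4a3 (16) in progenitor cluster 9.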

Other observations

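Cluster 22, which was left unnamed because it held markers of progenitors and of plasma cells, had 107 cells, 73 and 24 of them in the Tom+ libraries and 4 and 6 in the Tom- libraries, with a median of 55442 UMIs. Col1a1 stood at 2153 CPM, Col3a1 at 3236 and Col15a1 at 289 there, each lower than in progenitor-like cells as a whole.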
